A study of Rattus norvegicus with 28 samples.

Results

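The RNAs described here are the expressed genes of 111 to 200 bases in the brains of BN-Lx/Cub and SHR/OlaIpcv rats. The RNAs were chosen by length and level. A gene was a member when its annotated length, read from the BN-Lx estrus replicate 2 file, was over 110 and at most 200 bases, and when its level averaged at least 1 CPM, a count scaled to the total of gene counts, over all 28 libraries. By this rule 121 of 32623 Ensembl gene rows were members, out of 2704 rows of those lengths. Because the level over all libraries chose the members, levels are given as a description. At the limit of 1 CPM, the lowest members averaged 1.02 CPM (130 bases) and 1.09 CPM (190 bases), and the genes just outside averaged 0.997 CPM (174 bases and 136 bases). The shortest member had 111 bases and the longest 198 bases. The nearest expressed genes outside the length limits had 102 bases (546 CPM) and 201 bases (1.62 CPM).

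Each library came from whole brain, as total RNA depleted of ribosomal RNA and sequenced as stranded paired reads. A library was counted as 1 rat because the titles number biological replicates. Each inbred strain gave 14 libraries labelled as biological replicates, 2 of them from males. The 12 female libraries of a strain were split evenly over stages labelled pre-estrus, estrus and post-estrus (n = 4 each). BN-Lx pre-estrus replicates 7a and 7b share a title number, while their descriptions carry different numbers. They were counted as 2 animals, and the labels do not say more on this. No treatment, transgene or age was named in the labels. The extraction text names only males, whereas the sample labels name both sexes and set the groups used here. The design asks how sex and the estrous cycle interact with strain in brain RNA.

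Genes of this size class are mostly non-coding. Small nuclear RNAs (snRNAs) such as U1 and U2 form the spliceosome, which removes introns from messenger RNA precursors. Small nucleolar RNAs (snoRNAs) guide the chemical modification of ribosomal and spliceosomal RNA, and small Cajal body RNAs do so in Cajal bodies. Both kinds exist as repeated, near-identical gene copies and pseudogenes, lack a poly(A) tail, and are seen in libraries of total RNA rather than poly(A) RNA.

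The deposited files give Ensembl identifiers without gene names, and 0 of these identifiers occur in the RefSeq table at hand, so no member could be named and no member sequence is shown. The defining markers of brain cell types could not be looked up for the same reason. The class of the members was therefore read only from length, which does not identify a gene. In the RefSeq table (assembly GRCr8), 33 of the 38 genes of 164 bases are snRNAs, among them Rnu1-24 and other U1 genes, and 21 of the 24 genes of 191 bases are snRNAs, among them the U2 gene Rnu2-64. Of 50 RefSeq genes of 153 bases, 33 are ribosomal RNA genes. At 129 bases 72 of 79 are snoRNAs, and at 132 bases 146 of 153. Counted this way, 29 members had a length at which most RefSeq genes are snRNAs, 61 a length at which most are snoRNAs, 7 a length at which most are ribosomal RNAs, and 24 another length. By counts the order was different. The snRNA-dominated lengths held 60.98% of the counts of the members, the ribosomal length 15.73% and the snoRNA-dominated lengths 14.55%.

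Counts of the members fell on a few lengths. The 15 members of 164 bases held 31.4% of the members' counts, the 13 of 191 bases 29.6%, and the 7 of 153 bases 15.7%. Next came the 3 members of 143 bases with 5.94%, the single member of 112 bases with 5.24% and the 5 of 141 bases with 4.71%. Of the 121 members, 33 averaged at least 100 CPM, 22 lay between 10 and 100 CPM, and 66 between 1 and 10 CPM. A count above 0 was present in all 28 libraries for 112 members, and 9 were listed at 0 in at least 1 library.

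Per length, the 112-base RNA stood first. Its deposited TPM, a level divided by effective length and scaled to a fixed total, averaged 51608 and ran from 19680 to 79583 over the 28 libraries. The most abundant 143-base RNA averaged 16839 TPM, the leading pair of 141-base RNAs 8026 and 5937 TPM, and each row of a set of 9 identical 164-base rows 4814 TPM. On the CPM scale, which ignores length, the same 143-base RNA was first with 557 CPM and the 112-base RNA second with 527 CPM. TPM of such short RNAs rests on effective lengths of a few bases. The effective length, the number of start positions open to a fragment, ran from 2.22 to 12.15 bases between libraries for the members of 116 bases, from 17.73 to 41.38 for 164 bases and from 34.1 to 62.89 for 191 bases. It followed from an implied mean fragment length of 137.35 to 172.96 bases.

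Many rows could not be told apart. Of the 121 members, 37 had the same expected count as another member in each of the 28 libraries, compared to 2 decimals, so the 121 rows carried 92 distinct profiles. The 7 rows of 153 bases were 1 profile, and 9 of the 15 rows of 164 bases were another. RSEM divides reads that match several genes among them, and such values need not be whole. Of all member values 46.8% were whole numbers (within 1e-06 counts), and 37 members were whole in all libraries.

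Libraries held 42446718 to 87923728 gene counts. The 121 RNAs took 0.278% of them in SHR post-estrus replicate 13 and 2.12% in BN-Lx estrus replicate 9, with a median of 0.813%, a 7.62-fold range. The share averaged 1.21% ± 0.619 (SD, n = 12) in BN-Lx females and 0.799% ± 0.468 (SD, n = 12) in SHR females, and the ranges overlapped. The BN-Lx males had 1.83% and 0.610%, the SHR males 0.643% and 0.613%. Sample descriptions end in b35 or b37, a suffix whose meaning the labels do not give. The share was 1.19% ± 0.582 (SD, n = 15) in b35 libraries and 0.769% ± 0.483 (SD, n = 13) in b37 libraries. Within b35, females averaged 1.55% in BN-Lx (n = 5) and 1.00% in SHR (n = 7). Within b37, they averaged 0.969% in BN-Lx (n = 7) and 0.513% in SHR (n = 5). The strain order of the means was thus the same within each suffix.

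**Figure D1:**
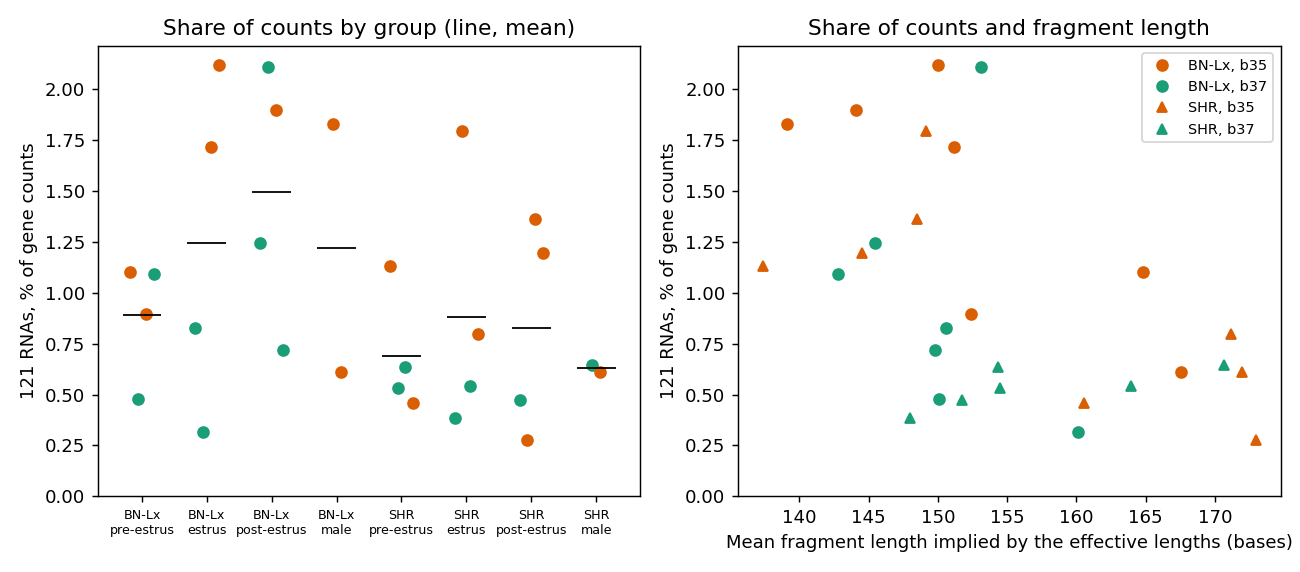
Share of gene counts held by the 121 RNAs, in percent, in each of 28 libraries by group (left, line at the group mean) and against the mean fragment length in bases implied by the deposited effective lengths (right). Orange marks suffix b35 and green b37, circles BN-Lx and triangles SHR. The share ran from 0.278% to 2.12%, and the libraries with fragments over 160 bases lay at 1.1% or less.

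Levels of the short RNAs moved with fragment length. In an edgeR quasi-likelihood fit with fragment length as an added term, 38 of 121 members (31 profiles) were called at an adjusted p under 0.05, and all 38 were lower in libraries of longer fragments. Over all genes, 0.458% of 18134 were called, all of them lower. The estimate was negative for 120 of 121 members, with a median of -0.50 on the log2 scale per 10 bases of fragment length, against 0.0085 over all genes. The called members were the shorter ones. Of 25 members of 111 to 130 bases 18 were called (median -0.59), of 47 members over 130 and up to 150 bases 20 were called (median -0.57), and of the 26 and 23 longer members none was called (medians -0.36 and -0.34). Implied fragment length averaged 151.2 ± 6.25 bases (SD, n = 12) in BN-Lx females and 154.7 ± 10.7 bases (SD, n = 12) in SHR females. The suffix term of the main fit called none of the 121 members, against 0.0551% of all genes, yet 105 of 121 estimates were lower in b37, with a median log2 difference of -0.70 (all genes, 0.02).

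More of these RNAs were called lower than higher in SHR females against BN-Lx females. In the edgeR quasi-likelihood test with Benjamini-Hochberg adjustment over all 18134 genes tested, 33 of the 121 members (27.3%) passed an adjusted p of 0.05, 3 higher and 30 lower in SHR. The background was 9.51% of all genes called, 4.58% higher and 4.93% lower. The 33 calls came from 25 of the 92 distinct profiles. The median log2 fold change was -0.61 over the members and 0.02 over all genes, and 112 of 121 members had a negative estimate. Of the called members, 23 differed more than 2-fold and 13 more than 4-fold. In 10 members the ranges of the 12 females of each strain did not overlap, 8.26% against a background of 1.57% of all genes, and 8 of these 10 were lower in SHR (background 0.811%). Only 3 of the 10 averaged at least 1 CPM in both strains. The other 7 entered the list through the strain in which they were high, so nothing is read from this count.

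Of the 33 called members, 12 stayed called in each of the 7 fits that changed the tool, scaling, filter or covariates, in all 28 fits that left out 1 library, and within each suffix taken alone. Of these 12, 7 were rows whose counts matched another row in 1 strain only, as described below, and 4 averaged at least 1 CPM in both strains. With such rows summed, 7 of the 12 lay in a row or sum that was called. The count of 33 fell to 18 without the suffix term, where 9.40% of all genes were called. When 1 library was left out, it fell to 21 without BN-Lx estrus replicate 2, 8 or 9, or BN-Lx pre-estrus replicate 3, 7a or 7b. It was also 21 without SHR estrus replicate 9 or 11, or SHR pre-estrus replicate 8. In these fits 8.31% to 9.62% of all genes were called.

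The rule averaged over both strains, so a member could enter through a single strain. A mean of at least 1 CPM was reached in both strains by 106 members, in BN-Lx alone by 12 and in SHR alone by 3. Among the 106, 22 were called (20.8%), 21 of them lower in SHR. Over all genes 9.51% were called, 4.93% lower. At the snRNA-dominated lengths 16 of 29 members were called (55.2%, median log2 fold change -0.92), beside the 9.51% of all genes. Of these 16 calls 13 were rows matched to another row in 1 strain only. With matching rows summed 4 of 11 were called, beside 9.27% of all rows and sums tested. At the snoRNA-dominated lengths 12 of 61 members were called (19.7%, median -0.48), 5 of them such rows, and 7 of 50 when summed, beside the same 9.27%. The calls at both kinds of length include rows that passed the limit of 1 CPM through BN-Lx alone. Examples are ENSRNOG00000059367 (164 bases) and a 131-base RNA, so no excess over the background is read from these counts. At the ribosomal length 0 of 7 members, which are 1 profile, were called (median -1.62).

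The 2 males of each strain gave 8 called members (6.61%, against a background of 0.800% of all genes), 2 higher and 6 lower in SHR (background 0.331% and 0.469%). These calls include members that passed the limit of 1 CPM through 1 strain, such as ENSRNOG00000057971 and ENSRNOG00000055352. Nothing is therefore read from the excess over the background. Implied fragment length averaged 153.33 bases in the BN-Lx males and 171.29 bases in the SHR males, and with a fragment length covariate 5 members were called. All 8 were also called in females, in the same direction, and 32 of the 33 members called in females had the same sign in males. Without BN-Lx male replicate 1 or SHR male replicate 1 there were 4 calls, and without SHR male replicate 2 there were 5. The strain difference was also fitted stage by stage. It called 12 members in pre-estrus (background 2.50%), 14 in estrus (2.24%) and 16 in post-estrus (2.50%), with median log2 fold changes of -0.15, -0.37 and -1.23. These counts were not split by the level in each strain, so no excess over the background is read from them.

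Many of the calls sat on rows that were indistinguishable from another member in 1 strain and distinct from it in the other. Pairs were sought among rows of at least 100 counts over a strain's libraries. Of all pairs of members, 93 had identical expected counts in every library of both strains, 9 only in the BN-Lx libraries and 17 only in the SHR libraries. The rows of each such pair had the same length. The pairs found in 1 strain only involved 21 members, of which 19 were called in females. Of the remaining 100 members 14 were called, 14% beside the background of 9.51%, and 95 of these 100 were lower in SHR, with a median log2 fold change of -0.60. The 14 include members that passed the limit of 1 CPM through BN-Lx alone, such as ENSRNOG00000059367 (164 bases). No excess is therefore read from this share.

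The 116-base pair shows the pattern. ENSRNOG00000057971 (116 bases) had 4.18 CPM in the lowest, 31.4 in the median and 74.0 in the highest BN-Lx female, and 0 CPM in the lowest and median and 0.0624 in the highest SHR female. No SHR female came near the lowest BN-Lx female. This row passed the limit of 1 CPM through BN-Lx alone, so its difference is given as a description. Its partner of the same length had exactly those BN-Lx values, while in SHR females it had 6.51, 19.2 and 124 CPM (lowest, median, highest), a range that overlapped the BN-Lx range and reached above it. The log2 fold change of ENSRNOG00000057971 was -12.02 ± 0.54 (SE; edgeR adjusted p = 1.05e-11). The BN-Lx males had 50.6 and 10.8 CPM and both SHR males 0 counts, so that, against a floor of 3 counts per library, the level was at least 509-fold higher in BN-Lx males. Summed, the 2 rows gave medians of 62.9 CPM in BN-Lx against 19.2 CPM in SHR females, and their sum was not called (log2 fold change -1.07 ± 0.40, SE; edgeR adjusted p = 0.105).

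A 164-base pair showed the opposite arrangement. ENSRNOG00000055352 (164 bases) had 0 CPM in the lowest, 0.0241 in the median and 0.123 in the highest BN-Lx female, against 31.7, 117 and 304 CPM in SHR females, with no overlap. It passed the limit of 1 CPM through SHR alone, so its difference is given as a description. Its partner had those same values in SHR, but 133, 490 and 992 CPM in BN-Lx females. In the edgeR fit the first differed by 11.80 ± 0.51 (SE; adjusted p = 1.49e-13) and the partner by -1.93 ± 0.32 (SE; adjusted p = 0.000213) on the log2 scale. The sum of both had medians of 490 CPM in BN-Lx against 233 CPM in SHR females and a log2 fold change of -0.93 ± 0.31 (SE; edgeR adjusted p = 0.0685), which did not pass. Males showed the same split, with 0.0352 and 0 CPM in BN-Lx against 176 and 112 CPM in SHR for ENSRNOG00000055352.

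Of the 13 rows of 191 bases, 9 were linked in the same manner, 7 of them identical in BN-Lx and 8 in SHR. ENSRNOG00000057887 (191 bases) had 6.12, 16.3 and 58.5 CPM (lowest, median, highest) in BN-Lx females and 77.9, 177 and 497 CPM in SHR females. The 2 ranges did not overlap. In SHR it was identical to 7 other rows, 6 of which had a median of 348 CPM in BN-Lx. A ninth row was identical to those 6 in BN-Lx and lower in SHR, with a median of 107 CPM. ENSRNOG00000057887 was higher in SHR by 3.49 ± 0.29 on the log2 scale (SE; edgeR adjusted p = 9.49e-09), while the 6 rows were lower by 0.92 (log2 fold change -0.92 ± 0.29, SE; adjusted p = 0.0487). The 9 rows together had medians of 2828 CPM in BN-Lx against 1521 CPM in SHR females, and the sum was not called (log2 fold change -0.84 ± 0.28, SE; edgeR adjusted p = 0.0647).

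Among 134-base rows, 4 were linked. Of these, 3 had identical counts in BN-Lx with a median of 6.87 CPM in females, while the fourth had 0 CPM in the lowest and median BN-Lx female and 0.508 in the highest. In SHR all 4 were identical with a median of 1.90 CPM. A 140-base pair was identical in BN-Lx (median 2.42 CPM), and in SHR females 1 row kept a median of 2.02 CPM while the other had 0.0624. A further pair of 191 bases differed from the other linked rows. Both rows had a median of 21.2 CPM in BN-Lx females, and in SHR females 2.99 and 0 CPM, so that the sum fell from a median of 42.4 to 3.14 CPM and remained called (log2 fold change -3.79 ± 0.29, SE; edgeR adjusted p = 1.99e-09).

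**Figure D2:**
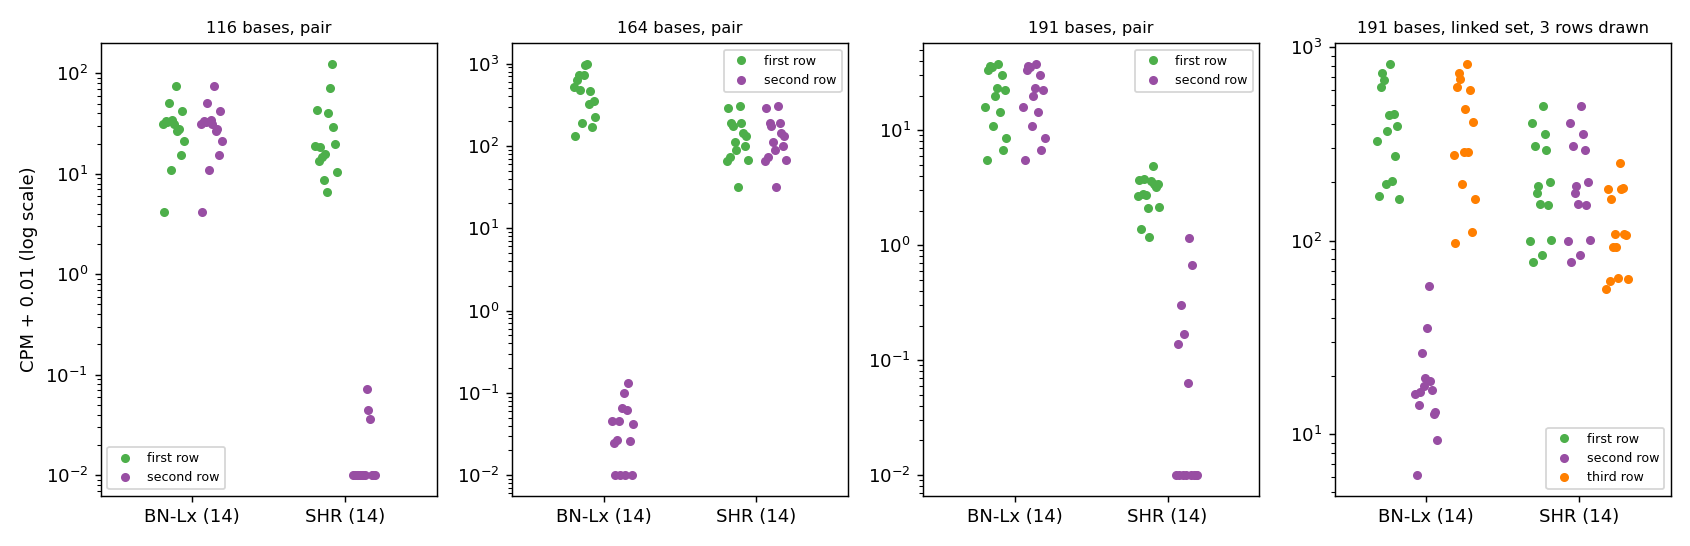
CPM of rows that had identical expected counts in the libraries of 1 strain only, on a log scale after adding 0.01, with 1 point per library (14 BN-Lx, 14 SHR). In the 116-base pair the second row fell to 0.0624 CPM or less in SHR females while the first did not, and in the 164-base pair the second row was at 0.123 CPM or less in BN-Lx females.

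With rows that shared their counts in every library of a strain added together before the fit, an alternative chosen after seeing the data, the 121 rows became 84 units. Then 14 of 84 were called in females, against 9.27% of all rows and sums tested, and all 14 were lower in SHR. In these 84 units, 1 of the 14 called was a unit with a pair found in 1 strain. In males 4 of 84 were called, beside 0.760% of all, each lower in SHR. The units include rows that passed the limit of 1 CPM through BN-Lx alone, such as ENSRNOG00000059367 (164 bases). No excess and no direction is therefore read from the counts of units in either sex. The 3 rows called higher in SHR females each became part of a sum with a negative estimate.

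**Figure D3:**
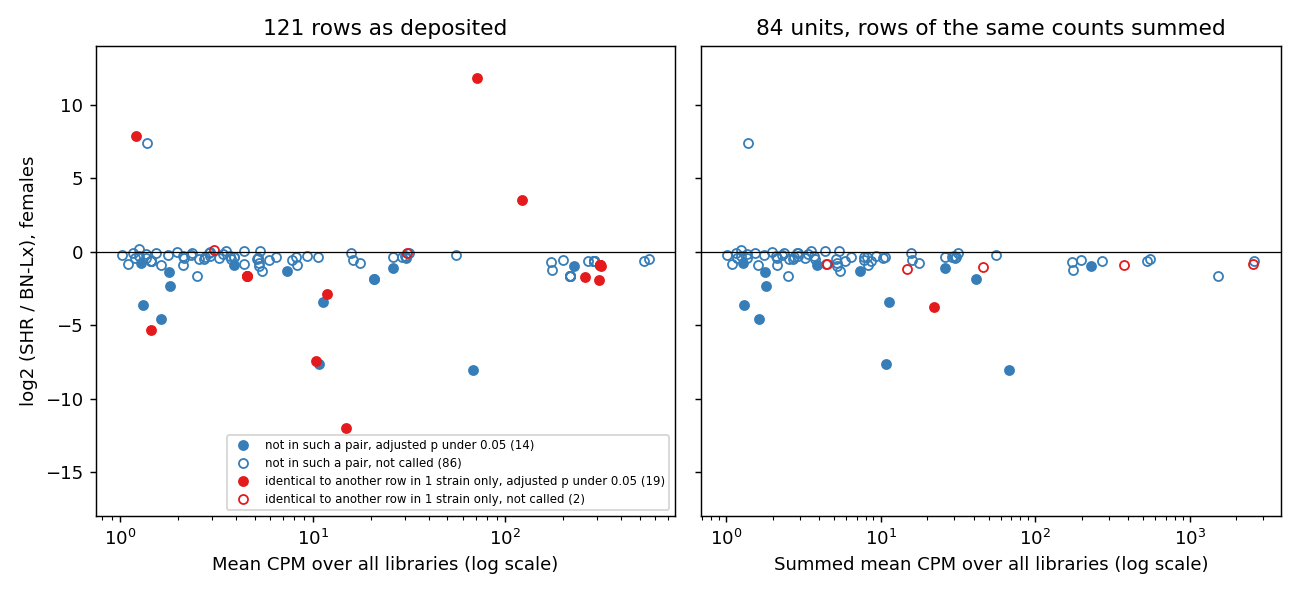
Log2 fold change of SHR over BN-Lx in females against mean CPM (log scale), for the 121 rows as deposited (left) and for 84 units after adding rows with the same counts (right). Filled points passed an adjusted p of 0.05, and red marks rows or units with counts identical to another row in 1 strain only. On the left 19 of the 21 red points are filled, and on the right 1 red point is.

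The lower levels of rows without identical counts in 1 strain only included 2 more 164-base RNAs. Their expected counts were whole numbers in 0% and 3.57% of the libraries, in the order given here. Whether reads were divided with other near-identical rows was not tested. ENSRNOG00000059367 (164 bases) had 40.7, 119 and 364 CPM (lowest, median, highest) in BN-Lx females and 0.101, 0.428 and 1.33 CPM in SHR females. Every BN-Lx female was above every SHR female, and so were the males, with 148 and 73.6 CPM in BN-Lx against 0.783 and 0.235 CPM in SHR. Its log2 fold change in females was -8.04 ± 0.39 (SE; edgeR adjusted p = 1.33e-12). The other, with a mean of 10.8 CPM, had 8.16, 19.99 and 61.6 CPM in BN-Lx females and 0, 0.0854 and 0.351 CPM in SHR females, and its log2 fold change was -7.65 ± 0.36 (SE; edgeR adjusted p = 2.84e-13). Both RNAs passed the limit of 1 CPM through their BN-Lx levels, so the absence of overlap and the p-values are given as a description. Other rows of 164 bases did not follow them: the set of 9 identical rows had a log2 fold change of the sum of -0.61 ± 0.29 (SE; edgeR adjusted p = 0.238).

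Next came 4 lower members that averaged from 1.31 to 11.4 CPM over all libraries. A 195-base RNA had 8.79, 17.5 and 37.5 CPM in BN-Lx females and 0.610, 1.69 and 4.17 CPM in SHR females, with no overlap (log2 fold change -3.42 ± 0.29, SE). A 131-base RNA had 1.09, 3.14 and 5.99 CPM in BN-Lx against 0.0445, 0.0844 and 1.01 CPM in SHR (log2 fold change -4.56 ± 0.40, SE). The SHR females were all below the lowest BN-Lx female, by a small margin in SHR pre-estrus replicate 10. The 131-base RNA passed the limit of 1 CPM through BN-Lx, so this too is a description. A 135-base RNA (2.34 and 0.145 CPM in the medians, log2 fold change -3.61 ± 0.44, SE) and a 116-base RNA (2.93 and 0.464 CPM, log2 fold change -2.34 ± 0.48, SE) overlapped between strains. The SHR medians of both lay under the limit of 1 CPM, so their differences are descriptions as well. RefSeq genes of 131 and 135 bases are mostly snoRNAs, 83 of 92 and 29 of 37. All 4 passed the edgeR test, with adjusted p from 1.15e-08 to 0.00192, given as a description for all but the 195-base RNA.

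Smaller differences were also called. A 137-base RNA had 21.3, 38.6 and 45.8 CPM in BN-Lx females and 6.58, 19.2 and 23.9 CPM in SHR females, and a log2 fold change of -1.13 ± 0.18 (SE; edgeR adjusted p = 9.29e-05). A 133-base RNA had 6.34, 10.5 and 17.5 CPM against 2.19, 4.14 and 7.87 CPM, and its log2 fold change was -1.30 ± 0.22 (SE; edgeR adjusted p = 0.000221). In both the ranges overlapped. A pair of identical 151-base rows, a length at which RefSeq lists the minor spliceosome gene Rnu12 among 9 genes, had medians of 31.9 and 4.49 CPM each, but spread from 1.45 to 89.2 CPM within BN-Lx females (log2 fold change -1.82 ± 0.57, SE; edgeR adjusted p = 0.0461).

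The 2 RNAs of the highest mean CPM were not among the calls. The most abundant 143-base RNA had 369, 632 and 1077 CPM in BN-Lx against 253, 420 and 807 CPM in SHR females. The 112-base RNA had 88.0, 522 and 1349 CPM in BN-Lx against 121, 271 and 1157 CPM in SHR females. Both lay lower in SHR by median with ranges that overlapped for the most part. The next 8 by mean CPM were called lower in SHR. They were 7 rows of the linked 191-base set (edgeR adjusted p = 0.0218 for 1 row and 0.0487 for the 6 identical rows) and the 164-base partner of ENSRNOG00000055352. The sums that hold these 8 rows were not called, as given above.

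Stage of the estrous cycle gave no call. In the edgeR test of any stage difference, 0 of 121 members passed in BN-Lx and 0 in SHR, where 0% of all genes passed as well. At an unadjusted p under 0.05 there were 21 members in BN-Lx (17.4%, against 3.25% of all genes) and 1 in SHR (0.826%, against 0.640%). DESeq2 and limma also called 0 members in both. Over both strains together, estrus against pre-estrus, post-estrus against estrus and post-estrus against pre-estrus each called 0 members by all 3 tools, beside 0% of all genes by edgeR, with 1, 6 and 18 members at an unadjusted p under 0.05 (0.826%, 4.96% and 14.9%, against 2.32%, 1.35% and 2.14% of all genes).

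In BN-Lx the post-estrus estimates lay mostly above those of both other stages. Post-estrus was above estrus in 116 of 121 members, with a median log2 difference of 0.70 (all genes, -0.0171). Estrus was above pre-estrus in 64 members, with a median of 0.0085 (all genes, 0.0121). Neither step gave a call (0% of all genes). Post-estrus was above pre-estrus in 114 of 121 members, with a median log2 difference of 0.68 (all genes, -4.33e-05), and no member was called (0% of all genes). In SHR the same step was positive in 41 of 121 members with a median of -0.22. In distinct profiles, the post-estrus estimate was positive in 85 of 91 in BN-Lx and 27 of 92 in SHR, and the median standard error was 0.51 in each strain. The 95% interval of the difference stayed within 2-fold in either direction for 12 profiles in BN-Lx and 8 in SHR, so that for the other profiles a 2-fold difference between these stages lay within the interval in at least 1 direction. The test of a stage difference between the strains called 0 members with edgeR, DESeq2 and limma (edgeR background 0%), and 4 members had an unadjusted p under 0.05 (3.31%, against 1.48% of all genes).

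The summed 164-base RNAs show the scatter behind this. In BN-Lx they came to 3229, 1535, 2574 and 1996 CPM in pre-estrus, 3274, 1114, 4302 and 5858 CPM in estrus, and 5443, 9127, 6350 and 2480 CPM in post-estrus. In SHR they came to 2835, 1787, 2271 and 1171 CPM in pre-estrus, 1285, 4697, 1571 and 3086 CPM in estrus, and 1403, 701, 5134 and 3552 CPM in post-estrus. The post-estrus mean was highest in BN-Lx (5850 ± 2739, SD, n = 4), but the lowest post-estrus animal lay inside the pre-estrus range. The implied fragment length averaged 148.11 bases in BN-Lx post-estrus and 152.51 bases in BN-Lx pre-estrus, and the part of this difference in the levels was not tested.

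The 191-base RNAs, summed, ranged from 1176 to 5388 CPM in BN-Lx pre-estrus, from 940 to 7011 in estrus and from 2570 to 7595 in post-estrus. In SHR they ranged from 1000 to 2842, from 879 to 3859 and from 863 to 4730 CPM in the same order. All stages overlapped in both strains. The member with the smallest p for stage in BN-Lx was a 165-base RNA, with 21.5, 23.9, 14.9 and 12.0 CPM in pre-estrus, 47.0, 10.1, 19.8 and 28.2 CPM in estrus and 91.9, 115, 32.2 and 25.01 CPM in post-estrus. Its post-estrus values were all above its pre-estrus values (edgeR adjusted p = 0.977, not called), and 2 of 4 post-estrus animals carried the difference in size.

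**Figure D4:**
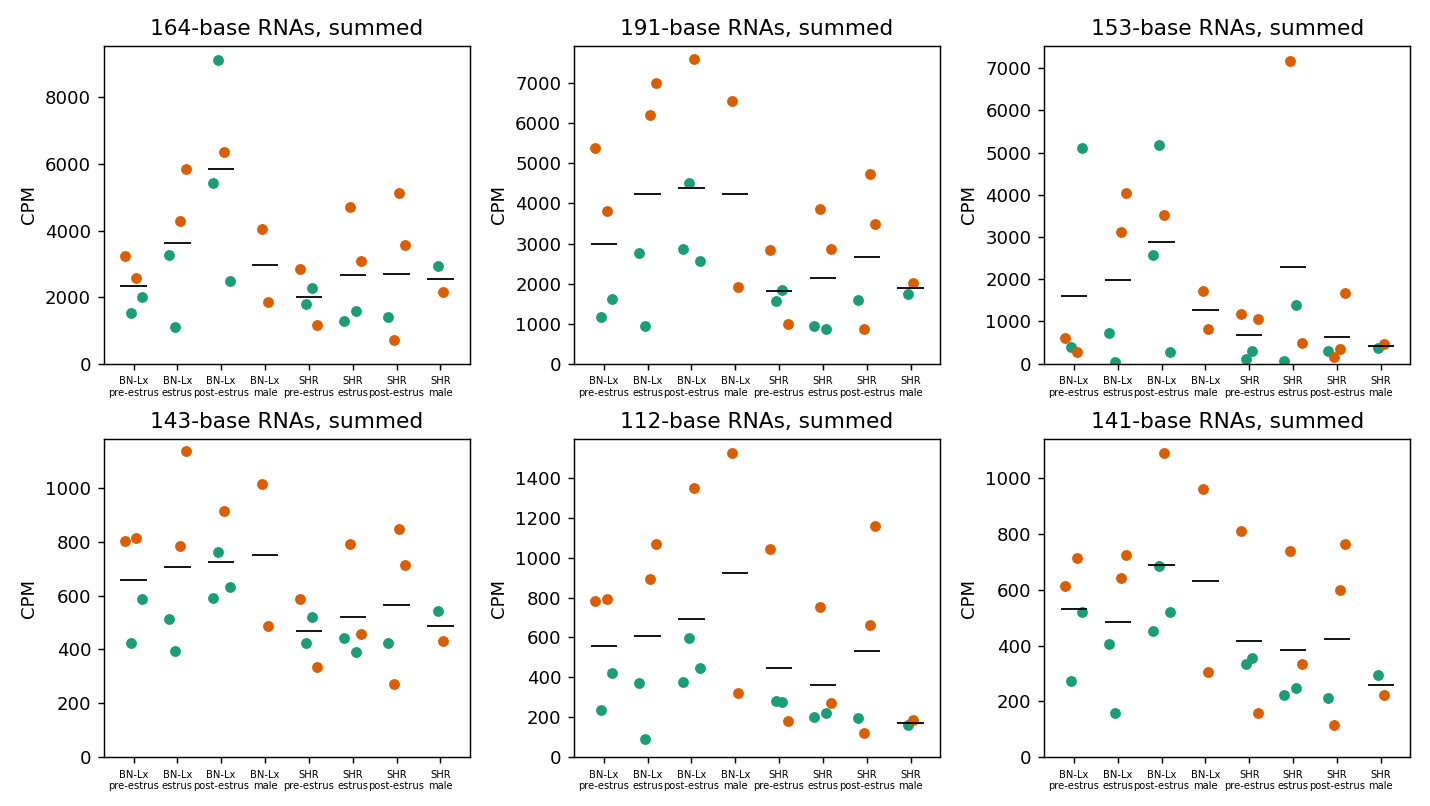
Summed CPM of the members of 6 lengths in each library, by strain and stage or sex (line at the group mean, orange for suffix b35 and green for b37). The 164-base sum reached 9127 CPM in BN-Lx post-estrus, the 153-base sum ran from 37.5 to 7168 CPM, and stages overlapped within each strain.

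Sex gave no call either. Males against the mean of the 3 female stages called 0 of 121 members in BN-Lx and 0 in SHR with edgeR, DESeq2 and limma, where edgeR called 0.0331% of all genes in each strain. At an unadjusted p under 0.05 there were 0 members in BN-Lx (background 4.93%) and 15 in SHR (12.4%, against 2.91% of all genes). The median log2 difference of males from females was -0.30 in BN-Lx and -0.58 in SHR, with median standard errors of 0.58 and 0.57. The 2 SHR males had implied fragment lengths of 170.63 and 171.94 bases, longer than the mean of 154.7 bases in SHR females. Of the SHR females, 2 had fragments as long (171.18 and 172.96 bases). With a fragment length covariate no member was called for sex in either strain, and 9 members in SHR had an unadjusted p under 0.05.

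These RNAs varied more between animals of a group than other genes did. The residual standard deviation of log2 CPM, after strain, stage or sex and suffix, had a median of 0.79 over the members, from 0.32 to 3.68, and 0.31 over all genes tested. The difference was present at each level. It was 0.81 against 0.38 at 1 to 5 CPM, 0.77 against 0.26 at 5 to 10 CPM, 0.73 against 0.21 at 10 to 100 CPM and 0.82 against 0.20 at 100 to 1000 CPM. On the TPM scale the medians were 0.55 for the members and 0.27 for all genes. The most abundant 143-base RNA, whose levels rest on many counts, had at least 17428 counts in each female library.

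**Figure D5:**
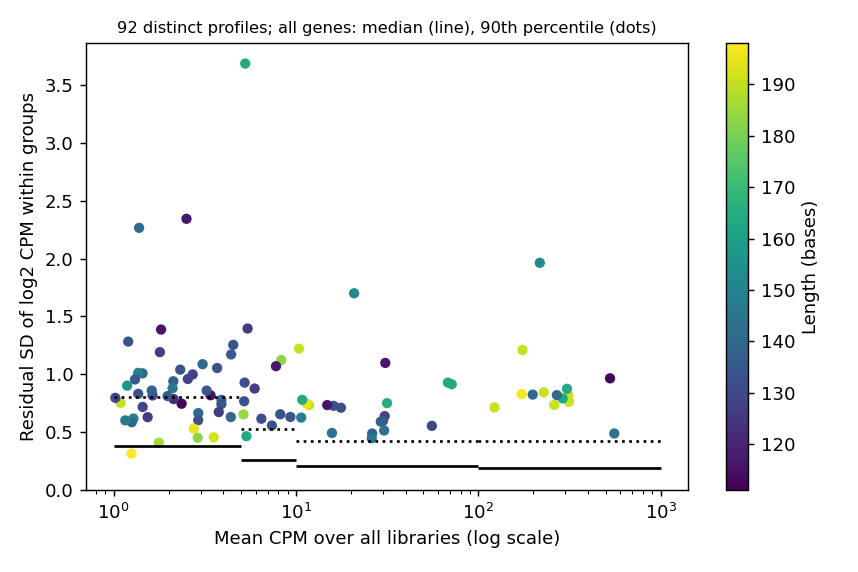
Residual standard deviation of log2 CPM within groups against mean CPM (log scale) for the 92 distinct profiles, coloured by length in bases. Black lines give the median and dotted lines the 90th percentile of all genes tested in 4 ranges of level. Every profile above 10 CPM lies over the dotted line of 0.42.

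Much of the spread was shared. After the group and suffix terms, the first principal component over 28 libraries held 55.0% of the residual variance of the 92 profiles, and 90 of the 92 loaded with the same sign. Over all genes the first component held 24.8%. The residuals of 96.5% of the 4186 pairs of profiles were positively correlated, with a median r of 0.66, given as a description because the profiles share libraries, depth and fragment length.

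Some members went their own way. The 7 identical 153-base rows, whose length is that of 33 RefSeq ribosomal RNA genes, had a residual standard deviation of 1.96, and each ran from 5.36 CPM in BN-Lx estrus replicate 4 to 1024 CPM in SHR estrus replicate 5. In the libraries labelled BN-Lx estrus their sums were 736, 37.5, 3111 and 4051 CPM. A 164-base RNA with a mean of 5.26 CPM had the largest standard deviation, 3.68. In BN-Lx it had 87.4, 24.5 and 9.36 CPM in 3 of the 4 post-estrus animals and 9.58 CPM in estrus replicate 4. In SHR it had 14.1 CPM in post-estrus replicate 6, 6.11 and 4.54 CPM in 2 pre-estrus animals and 5.59 CPM in 1 male. The other libraries had at most 0.0113 CPM. A 141-base RNA with a mean of 1.38 CPM was at most 0.000319 CPM in every BN-Lx library and reached 18.99, 5.52 and 1.79 CPM in 3 SHR estrus animals and 6.99 and 5.63 CPM in 2 SHR post-estrus animals, with 0 in the other SHR libraries. For these 2 RNAs the strain estimate had a standard error over 100 and is not given.

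The steadiest members of at least 5 CPM were a 145-base RNA (standard deviation 0.45), a 164-base RNA (0.47) and a 137-base RNA (0.49). The 145-base RNA had 17.2, 34.96 and 43.7 CPM in BN-Lx females and 8.74, 25.3 and 35.4 CPM in SHR females. RefSeq lists Snord15b and 11 other snoRNAs among its 14 genes of this length. Even this value was above the median of 0.21 for all genes of 10 to 100 CPM.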

How the data were processed

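Per the labels' protocols, total RNA of whole brain was depleted of ribosomal RNA (Ribo-Zero) and sequenced as stranded paired reads. The submitters' processing notes name cutadapt and RSEM. No version, genome build or annotation is given in the sources used here. Files as deposited hold, per the file headers, RSEM expected counts per gene, which are estimated counts that need not be whole, and the authors' TPM (a level divided by effective length and scaled to a fixed total). Gene lengths and effective lengths come from the same files.

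Expected counts were rounded to whole numbers, and 18134 genes passed edgeR's filter (count minimum 10), all 121 members among them. CPM values are on library sizes scaled by TMM, apart from the mean CPM that chose the members and ordered them, which uses all gene counts. One edgeR (4.0.16) quasi-likelihood fit over 28 libraries and 8 groups, with the suffix b35 or b37 as a covariate (19 residual degrees of freedom), gave all tests, with p-values adjusted over all genes tested. DESeq2 (1.42.0) and limma (3.58.1, on log2 of TPM plus 0.5) were alternatives. RSEM spreads reads of near-identical copies, so rows of such copies are uncertain. The test was checked on simulated counts drawn independently for each gene. These held no divided reads and no shared spread, so the check does not cover those features of the members. The implied fragment length of a library is the median over genes of at least 1000 bases of length minus effective length plus 1. Libraries are labelled biological replicates, and within groups each pair differed by far more than counting noise (lowest chi-square per degree of freedom 31.5). Replicates 7a and 7b of BN-Lx pre-estrus gave 112, rank 17 of 38 such pairs from the lowest. This check would not find 2 libraries made from 1 animal.

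The members and the lists were chosen with earlier results of these data known. Named members were those with the highest mean CPM, the called members with the largest fold changes in each direction, the smallest p where none was called, and the largest and smallest spread. Without gene names they are given by length and level, and at most 2 identifiers are printed in each direction. The brain marker list and other name-based lists were not used. Markers of other tissues were not looked up for the same reason.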

Additional observations from a re-analysis of the deposited data

Results flagged for a closer look

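In groups of 4 libraries, 24 of 204 tests of the named profiles and length sums found a single library far from the other 3, by Dixon's criterion. Chance marks about 1 in 20, many of these values share a library, and none is explained here.

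The 153-base RNAs, summed, stood at 5109 CPM in BN-Lx pre-estrus replicate 7b, with 620 CPM in the next library, and at 1680 CPM in SHR post-estrus replicate 8, with 356 CPM in the next. A single 153-base row gave 729.8 and 240 CPM in those 2 libraries. SHR pre-estrus replicate 10, which had the shortest implied fragments (137.35 bases), stood above its group in 7 RNAs. These were the 112-base RNA (1046 CPM, next 282.5), a 137-base RNA (66.57 CPM), the 131-base RNA (1.007 CPM), the 135-base RNA (0.9436 CPM), a 191-base RNA of a linked pair (0.6636 CPM), a 140-base RNA (0.2808 CPM) and ENSRNOG00000057971 (0.02645 CPM). SHR estrus replicate 5 was high in the 112-base RNA (754.6 CPM, next 269), a 116-base RNA (1.122 CPM) and the 135-base RNA (0.6355 CPM).

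BN-Lx post-estrus replicate 5 was high in ENSRNOG00000057971 (74.02 CPM, next 34.6) and in a 140-base RNA (6.135 CPM), and BN-Lx estrus replicate 4 was low in the former (4.181 CPM, next 31.3). The 164-base RNA of the widest spread stood at 9.583 CPM in BN-Lx estrus replicate 4 and at 14.07 CPM in SHR post-estrus replicate 6, which was also high in a 191-base RNA (1.144 CPM). The 134-base row that was at 0 in the other BN-Lx post-estrus animals had 0.5081 CPM in replicate 4. Low values were 11.17 CPM of the 145-base RNA in SHR estrus replicate 9, 3.963 CPM of a 132-base RNA in BN-Lx estrus replicate 2 and 6.576 CPM of the 137-base RNA in SHR post-estrus replicate 13, the library with the longest implied fragments (172.96 bases).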

How the results depend on the processing

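The count of 33 members called between strains in females was 18 without the suffix term, where 9.40% of all genes were called. It was 14 within b35 alone (9.71% of all genes) and 14 within b37 alone (2.63%). After adding rows with the same counts it was 14 of 84 (9.27%), and with 1 library left out 21 to 36 (8.12% to 10.2%). It was 38 with DESeq2 (12.1%), 26 with RLE scaling (9.27%), 22 without the filter (6.30%) and 25 with effective length offsets (9.23%). With a fragment length covariate it was 35 (8.93%), and with limma on TPM 33 (33.1%). The limma share of the members was thus under that of all genes. The limma fit split the calls into 11 higher and 22 lower, where the main fit had 3 and 30, and there the median of all genes was 0.22 and that of the members -0.19 on the log2 scale, a difference of -0.41. The count of 8 in males was 15 with DESeq2, 5 with the fragment length covariate, 2 within b35, 4 after adding rows, and 4 to 10 with 1 library left out. Both BN-Lx males are b35, so b37 alone gives no value. The male counts are given without the share over all genes, so no excess is read from them. When an arm is left with 1 male, that male is assumed to vary like the other groups. With the replicate block by title number, the counts were 9 in females and 5 in males, where all genes fell from 1724 to 96 called in females. The block is not among the 7 fits under which 12 members stayed called. Of 18 same-numbered pairs across groups, 1 had correlated deviations over 0.1. This check found no pairing of animals by number and cannot exclude one. A replicate block by description number leaves no strain difference to estimate, since each number belongs to 1 strain. The stage by strain test gave 1 call within b35. All other sex and stage counts stayed at 0 under the alternatives run. After adding rows, the estimates of the 3 members called higher in SHR turned negative: ENSRNOG00000055352 to -0.93, ENSRNOG00000057887 to -0.84 (and -0.45 in males) and the 134-base row to -1.21, the values of the sums they joined. The cause of the other differences was not tested. Of the other estimates for named members, 750 kept direction and call and 59 kept only direction. Choosing members by median length over all files gave the same 121. Of the 69 members of at least 5 CPM, 22 were called in females and 6 in males, beside 9.51% and 0.800% of all genes. These 69 include members that were high in 1 strain alone, so no excess is read from these counts. Libraries held at least 42446718 gene counts, and 9 members were listed at 0 in at least 1 of them.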
